A study of Mus musculus with 6 samples.

Results

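The 10 genes described here encode subunits of the transcription factor NF-kB and proteins that feed back on it: Nfkb1, Nfkb2, Relb, Nfkbia, Nfkbie, Nfkbiz, Tnfaip3, Tnip3, Traf1 and Ier3. They were chosen by symbol, with earlier results of these data known, and all 10 are among the 24454 symbols of the deposited count table. The table comes from RNA-seq of polyA RNA of peritoneal macrophages (phagocytes that reside in the abdominal cavity) taken from wild-type male C57BL6/J mice aged 6 to 8 weeks. It holds 6 libraries in 3 groups of 2. SGA360+LPS cells were given 10 µM SGA360, which binds the aryl hydrocarbon receptor (AHR), for 1 h, and then 10 ng/ml of the bacterial endotoxin LPS for 4 h. LPS cells were given 10 ng/ml LPS for 4 h, and vehicle cells were kept for 5 h with vehicle. No vehicle pretreatment of the LPS cells is labelled, so effects of the solvent or of handling cannot be told apart from those of SGA360. Whether the 2 libraries of each group are separate mice or cultures is not stated either, so each p-value is set against the spread of these libraries alone, which may be technical.

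NF-kB is a family of dimers built from Rel-type subunits. In resting cells the dimers are held in the cytoplasm by IkB proteins. LPS, through the receptor TLR4, activates the IkB kinase complex (IKK), IkB is degraded, and the dimers enter the nucleus and bind kappaB sites in the DNA. Several of the genes that NF-kB switches on in macrophages encode its own subunits and its own inhibitors, and this limits the length of the response. SGA360 is known as a selective AHR modulator, a ligand described as damping inflammatory gene expression.

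Total counts were 7726973 to 9529817 per library. Vehicle replicate 1 stood apart, with counts for 10001 symbols against 12282 to 12643 in the other 5 libraries, and with 4.92% of its counts on the ribosomal RNA gene Rn45s against 0.22% to 0.684% elsewhere. Of 10 macrophage markers, 9 had counts, with a summed level of 21800 to 25200 CPM (counts of a gene relative to the scaled total of its library) in SGA360+LPS, 22600 to 26300 CPM in LPS and 21200 to 23100 CPM in vehicle libraries. Most of this sum is lysozyme (Lyz2), and the tenth marker, Itgam, has several transcript rows and stood at 0. The 5 fibroblast markers summed to 4730 to 5200 CPM in SGA360+LPS, 4410 to 4720 CPM in LPS and 4670 to 5370 CPM in vehicle. Nearly all of that sum is the collagen genes Col1a1, Col1a2 and Col3a1. The remaining fibroblast markers, Dcn and Pdgfra, have several transcript rows and held few counts, 32 to 93 and 0 to 13 per library. Lists of B cell, T cell, neutrophil, mast cell, mesothelial and dendritic cell markers each summed to at most 259 CPM in any library. Among them Cd79b and S100a9, which have several transcript rows, and Ly6g stood at 0, and Trbc2 was absent. The B cell, T cell and neutrophil sums therefore rest on the remaining markers of their lists. The part of other cells in the results below was not tested, and in bulk RNA fewer cells of a type and less RNA per cell cannot be told apart.

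The members fell into 2 classes by how the table lists them. Nfkb1, Nfkbia, Tnip3, Traf1 and Ier3 have 1 transcript row each and together held 77751 counts over the 6 libraries, 99.7% of all counts of the members. Nfkb2, Relb, Nfkbie, Nfkbiz and Tnfaip3 have 2 or 3 rows each, 12 in all, and together held 233 counts, or 0.299%. The same held across the table, where the 5639 symbols with several rows took 1.87% of all counts and the 18815 symbols with 1 row took 98.13%. Relb, encoding the partner subunit of the NF-kB2 protein, had 0 counts in all 6 libraries. So did Nfkbiz, which encodes the nuclear co-regulator IkB zeta. For each of them 0 counts allow up to 0.381 CPM in an SGA360+LPS, 0.399 CPM in an LPS and 0.335 CPM in a vehicle library. These are the highest limits of 3 counts in a group, and they cover only reads that the table counts. If reads shared between rows were left out of the counts, these values set no limit on the level of either gene. Nfkbie, encoding IkB epsilon, had 1 count in 1 of the 2 SGA360+LPS libraries, 1 count in each LPS library and none in vehicle.

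The rows of Relb, Nfkbie, Nfkbiz and Tnfaip3 overlap almost fully, and the overlap was not computed for Nfkb2, whose 3 rows start at different bases. In the GENCODE vM21 annotation, the 2 Relb transcripts hold 0 and 9 bases that the other does not cover, and the 3 Nfkbiz transcripts hold 23, 0 and 0. The longer Nfkbie transcript has 79 bases of its own and 3 counts, and the other has 0 of each. For Tnfaip3, encoding the ubiquitin-editing enzyme A20, the transcripts have 173 and 261 bases of their own, with 8 and 65 counts. In these 4 genes no row without bases of its own had a count. The sources used here do not say how the authors treated reads that fall on several rows, so the counts of these 5 members may cover isoform-specific reads only, and no statement is made that Relb, Nfkbie or Nfkbiz was or was not expressed.

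**Figure D1:**
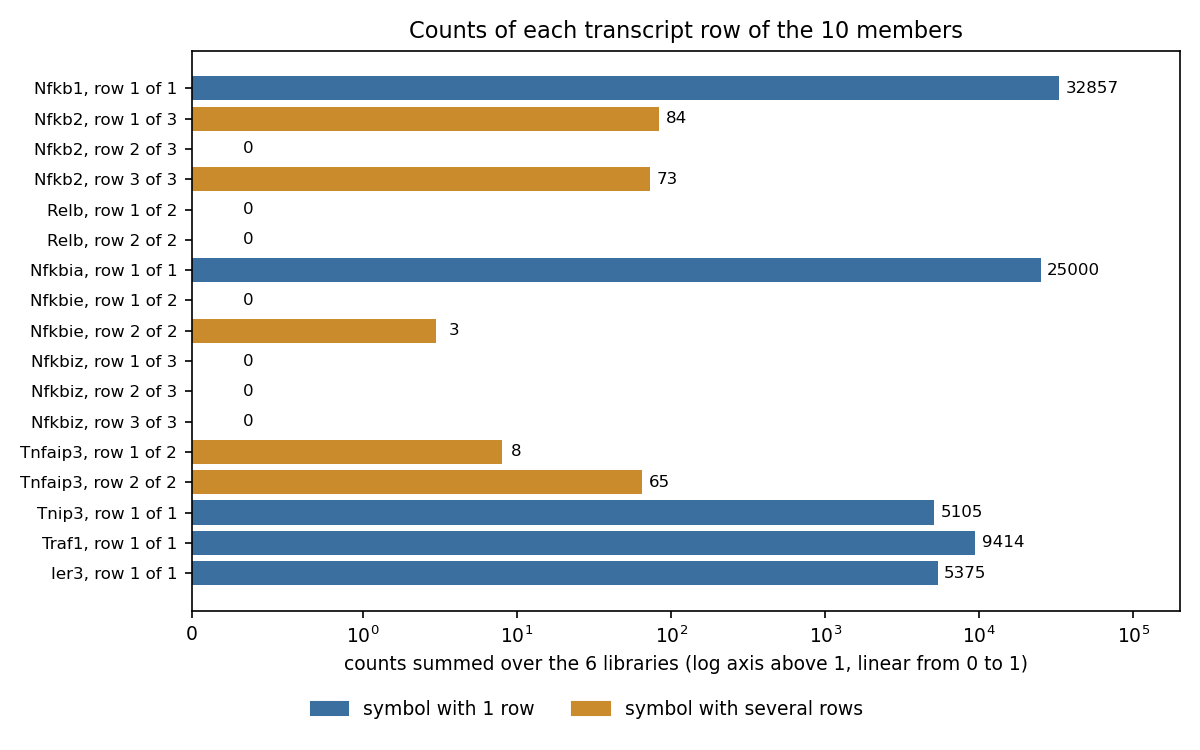
Bars give the counts of each transcript row of the 10 members, summed over the 6 libraries, on an axis that is logarithmic above 1 and linear from 0 to 1. The 5 members with 1 row lie between 5105 and 32857 counts, and no row of the other 5 members exceeds 84 counts.

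Promoter sequences are shown for the members with enough reads to compare, to set the kappaB-like letters near the start site beside their response. RefSeq windows on GRCm38.p6, from 250 bases before to 50 bases after a start site, were at hand for 7 of the 10 members, in 10 windows. They were not at hand for Nfkb1, Relb and Nfkbiz. The kappaB consensus, a motif of 10 bases searched on both strands, was found in a window of 6 of these 7 members (Nfkb2, Nfkbia, Nfkbie, Tnfaip3, Tnip3 and Ier3, not Traf1). Over all 27025 symbols with windows, 9.55% held it. The AHR response element core, GCGTG on either strand, was found for 4 of the 7 (Nfkb2, Nfkbie, Tnfaip3 and Traf1), against 35.2% of all symbols, and the AP-1 site TGANTCA for 3 (Nfkb2, Nfkbie and Tnfaip3), against 8.97%. The kappaB match of Tnfaip3 closest to its start was GGAAATCCCC at position −12, while Nfkbie had GGGGGATTCC at position −106. Nfkb2 had, among others, GGGGCTTTCC at position −11 and GGGACTTTCC at position 10, each from a different start site. Positions are those of the first base of a match, and position 0 is the start site. A match describes letters only. The windows below lie at chr17:35821463-35821762 on the plus strand (Ier3), chr12:55492598-55492897 on the minus strand (Nfkbia), chr6:65590148-65590447 on the plus strand (Tnip3) and chr2:34961723-34962022 on the minus strand (Traf1), each written 5′ to 3′ along its gene with the kappaB match in capitals.
Ier3: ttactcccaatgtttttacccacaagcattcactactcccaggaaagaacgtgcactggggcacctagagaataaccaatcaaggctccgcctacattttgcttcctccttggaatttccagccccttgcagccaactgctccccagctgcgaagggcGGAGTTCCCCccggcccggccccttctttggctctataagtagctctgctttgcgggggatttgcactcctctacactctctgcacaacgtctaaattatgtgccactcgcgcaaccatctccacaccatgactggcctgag
Nfkbia: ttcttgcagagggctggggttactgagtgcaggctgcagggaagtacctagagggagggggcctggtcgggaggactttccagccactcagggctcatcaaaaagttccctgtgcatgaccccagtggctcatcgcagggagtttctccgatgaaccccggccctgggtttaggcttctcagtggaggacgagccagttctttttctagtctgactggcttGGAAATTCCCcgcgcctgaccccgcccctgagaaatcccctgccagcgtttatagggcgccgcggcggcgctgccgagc
Tnip3: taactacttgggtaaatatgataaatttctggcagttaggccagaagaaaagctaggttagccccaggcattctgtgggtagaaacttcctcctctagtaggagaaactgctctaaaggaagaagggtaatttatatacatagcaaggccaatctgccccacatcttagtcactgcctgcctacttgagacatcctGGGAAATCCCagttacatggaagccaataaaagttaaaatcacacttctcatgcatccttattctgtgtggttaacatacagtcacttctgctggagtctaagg
Traf1: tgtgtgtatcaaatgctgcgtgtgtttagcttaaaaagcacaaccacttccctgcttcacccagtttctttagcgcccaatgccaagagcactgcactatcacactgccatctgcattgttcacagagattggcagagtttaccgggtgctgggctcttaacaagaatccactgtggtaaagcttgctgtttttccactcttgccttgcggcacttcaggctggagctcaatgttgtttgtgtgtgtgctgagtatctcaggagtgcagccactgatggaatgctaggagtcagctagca
The match lies at position −92 in Ier3, −29 in Nfkbia and −54 in Tnip3, and the Traf1 window has none. In 3 of these 4 windows, all but that of Traf1, the AHR core was not found. Over all windows 32.4% held it, so most windows lack it.

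The comparison of SGA360+LPS with LPS asks what the AHR ligand did to these genes under the endotoxin stimulus. Of the members, Ier3 alone passed the test, and it was lower with SGA360. The other members with 1 row, Nfkb1, Nfkbia, Tnip3 and Traf1, lay between 84.7% and 93% of their LPS level in SGA360+LPS cells and did not pass. Among all 9389 genes tested, 7 were lower (0.0746%) and 0% were higher at an adjusted p under 0.05 (edgeR's quasi-likelihood test, Benjamini-Hochberg adjustment). DESeq2 called 10 genes lower and 1 higher, and limma-voom 9 lower and 0 higher. At an unadjusted p under 0.05 in edgeR there were 276 genes, among them 3 members, Ier3, Tnip3 and Nfkbia.

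Ier3 is an early response gene whose product, IEX-1, affects cell survival. Its single row lies at chr17:35821713-35822911 on the plus strand of mm10. It had 883 and 929 counts in SGA360+LPS, 1312 and 1558 in LPS, and 331 and 362 in vehicle libraries. These are 112 and 104 CPM with SGA360+LPS, 175 and 170 CPM with LPS, and 37.0 and 37.7 CPM with vehicle. The 3 groups did not overlap, and SGA360+LPS lay between the other 2. The mean was 108 ± 5.69 CPM in SGA360+LPS cells and 172 ± 2.96 CPM in LPS cells (SD, n = 2 each), so the SGA360+LPS mean was 62.7% of the LPS mean. The log2 fold change was −0.67 (SE 0.08; 95% interval −0.86 to −0.49; adjusted p = 0.0174), and the gene ranked 5 by p among 9389. Its level above vehicle was 70.8 CPM with SGA360+LPS and 135 CPM with LPS alone. Without SGA360+LPS replicate 1 or 2, or without LPS replicate 1 or 2, the log2 fold change was −0.73, −0.62, −0.66 and −0.69, but the call was lost, with adjusted p = 0.328, 0.787, 0.415 and 0.295. These fits take the spread of the lone library from the other groups. Without vehicle replicate 1 or 2 adjusted p was 7.95e-05 and 5.65e-05, and with DESeq2 it was 3.75e-06.

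The subunit gene Nfkb1 (chr3:135584655-135691547, minus strand), whose product p105 is cut to the p50 subunit, stood at 866 and 868 CPM in SGA360+LPS, 919 and 945 CPM in LPS and 129 and 165 CPM in vehicle libraries. The SGA360+LPS libraries were the lower pair of the stimulated ones, by a small margin. The log2 fold change between the stimulated groups was −0.10 (95% interval −0.32 to 0.11; adjusted p = 1).

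Nfkbia (chr12:55489409-55492647, minus strand) encodes IkB alpha, the inhibitor that is degraded and made again in each NF-kB response. It stood at 696 and 615 CPM in SGA360+LPS, 759 and 765 CPM in LPS and 66.6 and 75.9 CPM in vehicle libraries. The SGA360+LPS pair was lower and spread more widely than the LPS pair. The log2 fold change was −0.22 (95% interval −0.40 to −0.04 for this gene on its own; unadjusted p = 0.0213 in edgeR, adjusted p = 1).

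Tnip3 (chr6:65590398-65634040, plus strand) encodes ABIN-3, a relative of the A20-binding inhibitors of NF-kB that has been described as inhibitory in human cells. It stood at 130 and 142 CPM in SGA360+LPS, 163 and 158 CPM in LPS and 7.26 and 7.60 CPM in vehicle libraries. The 3 groups were separate. The log2 fold change between SGA360+LPS and LPS was −0.24 (95% interval −0.42 to −0.05 for this gene on its own; unadjusted p = 0.0168 in edgeR, adjusted p = 1).

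Traf1 (chr2:34943258-34961772, minus strand), an adaptor of TNF receptor signalling, stood at 265 and 249 CPM in SGA360+LPS, 286 and 291 CPM in LPS and 14.6 and 17.0 CPM in vehicle libraries. Again the SGA360+LPS pair was the lower of the stimulated pairs, with a log2 fold change of −0.17 (95% interval −0.34 to 0.00; adjusted p = 1). Each of the 5 members with 1 row was thus lower in the 2 SGA360+LPS libraries than in either LPS library, an order that 19.6% of all tested genes showed. The intervals of Nfkb1, Nfkbia, Tnip3 and Traf1 leave room for a fall of the size of their lower bounds, and a missed threshold does not show that they were equal. When edgeR was fitted to the SGA360+LPS and LPS libraries alone, SEs were smaller and the calls stayed the same. Nfkb1 was then at −0.11 (SE 0.06; adjusted p = 0.601) and Nfkbia at −0.22 (SE 0.07; adjusted p = 0.35). Tnip3 was at −0.24 (SE 0.07; adjusted p = 0.324) and Traf1 at −0.17 (SE 0.06; adjusted p = 0.459). In that fit Ier3 was at −0.68 (SE 0.07; adjusted p = 0.000168).

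**Figure D2:**
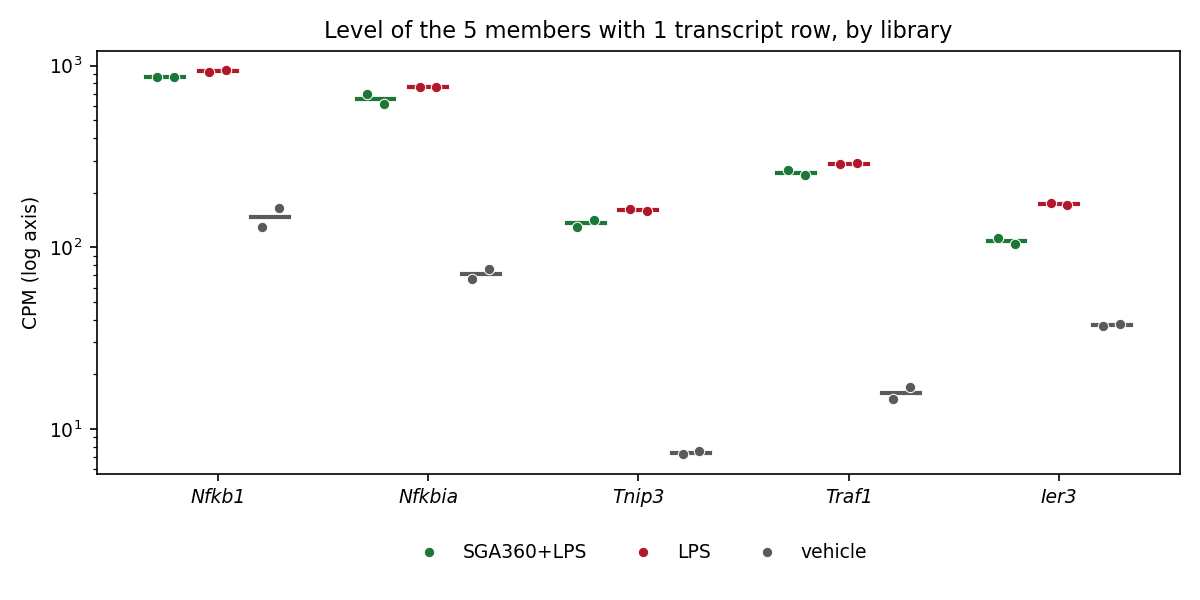
Points give the level of each library in CPM on a log axis for the 5 members with 1 transcript row, and lines give group means, with SGA360+LPS left, LPS in the middle and vehicle right. Both stimulated groups lie above vehicle in all 5 genes, and on this axis the gap between SGA360+LPS and LPS is widest for Ier3 (108 against 172 CPM).

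Nfkb2 encodes p100, the precursor of the p52 subunit. It had 36 and 30 counts in SGA360+LPS, 31 and 34 in LPS and 12 and 14 in vehicle libraries. The stimulated groups overlapped, and the ratio of summed counts between SGA360+LPS and LPS was 1.01, with a 95% exact interval from 0.704 to 1.44. Tnfaip3 had 12 and 18 counts in SGA360+LPS, 24 and 18 in LPS and 0 and 1 in vehicle libraries. Its ratio of SGA360+LPS to LPS was 0.708 (0.428 to 1.16). For these 2 members no change with SGA360 was detected, and changes within these intervals could not have been told from none with the counts they hold. Such intervals and limits hold counting error alone, as PCR copies of a molecule could not be told from separate molecules.

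Ratios of counts within a library do not depend on the scaling between libraries. Per 100 counts of the other 4 members with 1 row, Ier3 had 5.73 and 5.55 counts in SGA360+LPS, 8.20 and 7.89 in LPS and 17.0 and 14.2 in vehicle libraries. The groups did not overlap, and Ier3 took the smallest share with SGA360+LPS and the largest with vehicle. An exact permutation test of SGA360+LPS against LPS gave a two-sided p = 0.333, the smallest that 2 libraries against 2 allow. The other members were also lower against Nfkb1 in SGA360+LPS, by less. Nfkbia had 80.3 and 70.9 counts per 100 Nfkb1 counts in SGA360+LPS, 82.6 and 80.9 in LPS and 51.6 and 46.1 in vehicle libraries. Traf1 had 30.6 and 28.7 counts per 100 Nfkb1 counts in SGA360+LPS and 31.1 and 30.8 in LPS libraries, and 11.4 and 10.3 in vehicle libraries. For Tnip3 the same ratio was 15.0 and 16.4 in SGA360+LPS, 17.8 and 16.7 in LPS and 5.63 and 4.62 in vehicle libraries. For all 3 of these ratios SGA360+LPS and LPS did not overlap either, and the exact permutation test gave the same two-sided p = 0.333. Their nearest libraries lay close, at 80.3 against 80.9 for Nfkbia, 30.6 against 30.8 for Traf1 and 16.4 against 16.7 for Tnip3. All 3 share Nfkb1 as the denominator, so they are not independent. How often ratios of other genes separate in this way was not computed, for these or for Ier3. The mean ratio in SGA360+LPS and in LPS was 75.6 and 81.8 for Nfkbia, 29.6 and 31.0 for Traf1, 15.7 and 17.2 for Tnip3 and, for Ier3 per 100 Nfkb1 counts, 12.4 and 18.5. Whether Ier3 differed from the other members in its response to SGA360 was not tested beyond this.

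**Figure D3:**
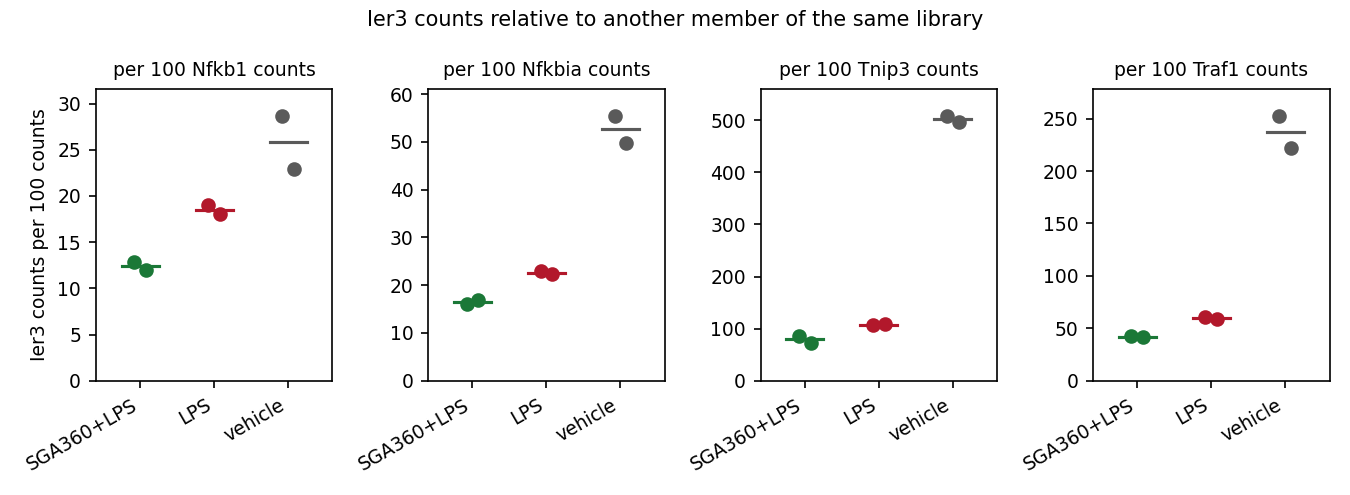
Points give the Ier3 counts of each library per 100 counts of Nfkb1, Nfkbia, Tnip3 or Traf1 of the same library, and lines give group means, on axes from 0. In each panel the SGA360+LPS points are lowest, the LPS points lie between, and the vehicle points are highest, with no overlap of groups.

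The comparison of LPS with vehicle gives the response that SGA360 was set against. All 7 members that passed the filter on low counts rose with LPS, where 19.4% of all 9389 tested genes rose and 17.0% fell. Relb, Nfkbie and Nfkbiz did not pass the filter. Tnfaip3 passed it only through the stimulated libraries, so a rise was bound to follow for it. Tnip3 rose the most among members with 1 row, to 161 ± 3.72 CPM in LPS cells against 7.43 ± 0.235 CPM in vehicle cells (SD, n = 2 each), which is 4.43 on the log2 scale (SE 0.11; adjusted p = 1.09e-09). Traf1 rose by 4.19 (SE 0.10; adjusted p = 7.05e-10), and it averaged 288 ± 3.58 CPM in LPS and 15.8 ± 1.64 CPM in vehicle cells. Nfkbia reached 762 ± 4.30 CPM in LPS cells, against 71.2 ± 6.55 CPM in vehicle cells, or 3.42 on the log2 scale (SE 0.09; adjusted p = 1.43e-09).

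The subunit gene Nfkb1 rose less than these 3 by its point value, 2.67 (SE 0.10; adjusted p = 2.30e-08), with 932 ± 18.6 CPM in LPS and 147 ± 25.1 CPM in vehicle cells. It was 2.52 without vehicle replicate 1 and 2.87 without vehicle replicate 2. Ier3 rose by 2.21 (SE 0.09; adjusted p = 3.08e-08). Its 95% interval, 2.01 to 2.40, lay apart from those of Tnip3 (4.18 to 4.68), Traf1 (3.97 to 4.40), Nfkbia (3.22 to 3.62) and Nfkb1 (2.44 to 2.89). Differences between the genes' rises were not tested as such. Cell type markers moved with LPS too. Of the 9 tested macrophage markers, Cd14 (2.98), Adgre1 (1.30) and Timd4 (1.29) rose, while Fcgr1 (−2.39), Mertk (−2.14), Gata6 (−0.48) and Csf1r (−0.34) fell, and 1 of 5 mesothelial markers (Upk3b, −0.47) and 1 of 4 fibroblast markers (Col3a1, −0.41) fell. Their part in the members' rises was not tested. In SGA360+LPS against LPS edgeR called none of the tested markers.

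Nfkb2 rose by 1.47 (SE 0.45; adjusted p = 0.0266) on few counts, 65 in LPS and 26 in vehicle, a count ratio of 2.78 (1.74 to 4.57). Its rows did not move alike. The row starting at chromosome 19 base 46304737 had 16 and 17 counts with LPS and 12 and 10 with vehicle, while the row starting at base 46305695 had 15 and 17 with LPS and 0 and 4 with vehicle. The third row, from base 46305930, had 0 counts in all libraries. With the row of most counts in place of the sum, the log2 fold change was 0.74 and the call was lost (adjusted p = 0.351). The call was also lost without SGA360+LPS replicate 1 (adjusted p = 0.0852) or 2 (0.0743), without LPS replicate 1 (0.172) or 2 (0.136), with DESeq2 (0.0696) and with the 2 groups alone (0.0784). Tnfaip3 had 42 counts in LPS and 1 in vehicle, a ratio of 46.8 with a 95% exact interval from 7.95 to 1890, and adjusted p = 0.00214.

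The same 7 members rose in SGA360+LPS against vehicle, a comparison that shares its vehicle libraries with the last one, and where 17.9% of tested genes rose and 15.2% fell. Here too a rise was bound to follow for Tnfaip3, which passed the filter only through the stimulated libraries. The log2 fold changes were 4.19 for Tnip3, 4.02 for Traf1, 3.20 for Nfkbia and 2.56 for Nfkb1, each with an SE of 0.09 to 0.11 and an adjusted p of 3.31e-08 or less. Ier3 was at 1.53 (SE 0.09; adjusted p = 4.77e-07), and so remained above vehicle with SGA360. Nfkb2 stood at 1.49 (SE 0.45; adjusted p = 0.0276) and lost its call in 7 of 13 alternatives. They were the row of most counts (0.52, adjusted p = 0.529), DESeq2 (1.52, 0.0734), the 2 groups alone (1.49, 0.0829), and the fits without SGA360+LPS replicate 1 (1.28, 0.255) or 2 (1.71, 0.102) or without LPS replicate 1 (1.51, 0.0833) or 2 (1.51, 0.0812). Tnfaip3 had a count ratio of 33.1 (5.51 to 1350; adjusted p = 0.00528 in edgeR), and lost its call without SGA360+LPS replicate 2 (adjusted p = 0.0683).

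**Figure D4:**
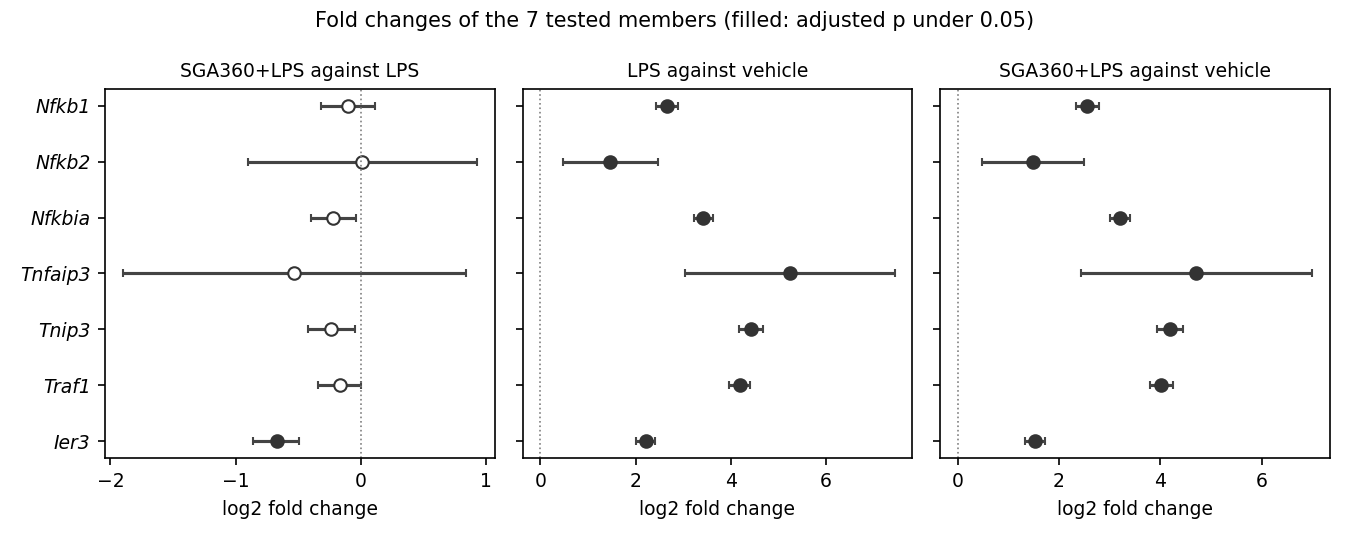
Points give the log2 fold change of the 7 tested members with 95% intervals, one panel per comparison, filled where adjusted p was under 0.05. All 7 lie above 0 in both comparisons with vehicle, which was bound to follow for Tnfaip3 from the filter. In SGA360+LPS against LPS only Ier3, at −0.67, is filled.

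Levels can be set against each other only per length of transcript. In SGA360+LPS cells the order by CPM per kilobase was Nfkbia (439 and 388), Nfkb1 (209 and 209), Traf1 (113 and 107), Ier3 (103 and 95.3) and Tnip3 (34.4 and 37.6). In LPS cells it was Nfkbia (479 and 483), Nfkb1 (222 and 228), Ier3 (160 and 156), Traf1 (122 and 125) and Tnip3 (43.2 and 41.9). Ier3 and Traf1 thus stood in the opposite order in the stimulated groups, with no overlap of their libraries in either. In vehicle cells Nfkbia came first (42.0 and 47.9), Nfkb1 (31.1 and 39.7) and Ier3 (33.9 and 34.5) could not be ordered beyond their spread, and Traf1 (6.27 and 7.26) and Tnip3 (1.92 and 2.01) were lowest.

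Genes with the most similar course were sought by the distance between log2 CPM profiles over the 6 libraries, each centred on its own mean, among 7568 genes of at least 5 CPM. The mean profile of the 7 tested members was closest to Cd14, the co-receptor for LPS, at a distance of 0.19, followed by Pilra (0.20), Ehd1 (0.23), Slfn2 (0.25) and Socs3 (0.26), a feedback inhibitor of cytokine signalling. Nfkb1 was closest to the transcription factor gene Ets2 (0.09), Nfkbia to 6530402F18Rik (0.16) and the chemokine gene Ccl2 (0.25), and Nfkb2 to Ccdc86 (0.18). Tnip3 was nearest to Bcl2a1d (0.17), a survival gene with near-identical copies whose value is uncertain for that reason, and Traf1 to Malt1 (0.17), which encodes a protease of NF-kB signalling. Ier3 had no gene so near: the closest were Samsn1 (0.34), the elongation factor gene Ell2 (0.46) and the adenosine receptor gene Adora2b (0.48). For Tnfaip3, with its few counts, the closest was Chl1 (0.52). Of the 3 genes nearest to Ier3, Samsn1 stood at −0.39 (SE 0.09), Ell2 at −0.28 (SE 0.08) and Adora2b at −0.40 (SE 0.15) in SGA360+LPS against LPS, each with adjusted p = 1. All 6 points of each profile share the step between vehicle and the stimulated groups.

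Beyond the members, 90 genes of the pathway were followed in 8 lists, which were also chosen with earlier results of these data known. Of these, 69 passed the filter, and 20 of the 21 that did not have several transcript rows, as against 4 of the 69. Chuk, encoding the kinase IKK alpha, and Traf2 were among those at 0 counts in all 6 libraries. In SGA360+LPS against LPS, 5 of the 69 fell and 0 rose, where 0.0746% of all tested genes fell and 0% rose. In LPS against vehicle 46 of the 69 rose and 6 fell, where 19.4% of all tested genes rose and 17.0% fell, and the counts of the single lists below are to be read against the same shares.

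The remaining subunit genes both rose with LPS, Rel by 1.68 (SE 0.13; adjusted p = 5.02e-06) and Rela by 1.07 (SE 0.08; adjusted p = 2.55e-06). In SGA360+LPS against LPS they were at −0.19 (SE 0.12) and −0.05 (SE 0.08), with adjusted p = 1 each. A pair of further IkB-type genes, Nfkbid (1.38) and Bcl3 (1.12), both nuclear regulators, rose with LPS, and each stood at −0.03 in SGA360+LPS against LPS. The list of IKK and upstream kinases has 8 tested genes, of which Tab1, Tab2 and Tab3 encode adaptors of the kinase TAK1 and are not kinases. Of the 8, 5 rose with LPS, namely the kinase genes Ikbke (1.89), Tbk1 (0.98) and Map3k8 (0.95) and the adaptor genes Tab2 (0.57) and Tab3 (0.49). In SGA360+LPS against LPS none of the 8 was called by edgeR, DESeq2 or limma-voom, and 0 had an unadjusted p under 0.05 in edgeR. Chuk, Ikbkg and Map3k7 of this list did not pass the filter and were not tested. Ikbkb averaged only 1.21 CPM over the 6 libraries and stood at −0.56 (SE 0.84), so its change was poorly measured.

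Of 10 tested genes in the list of A20-binding and ubiquitin-editing genes, 5 rose and 1 fell with LPS. The median of the 10 was 0.11, against −0.01 over all genes. The name of this list, like that of the TRAF and cIAP list below, is a loose label that does not describe each gene in it. Zc3h12a, encoding the inflammation-limiting ribonuclease Regnase-1, rose by 2.45 (SE 0.12; adjusted p = 1.08e-07), while Tnfaip8l2 fell by 1.64 (SE 0.13; adjusted p = 5.34e-06). Of 8 TRAF and cIAP adaptors, 3 rose, namely Birc3 (2.28), encoding the ubiquitin ligase cIAP2, Ripk2 (1.85) and Traf5 (1.40), and 5 were called without vehicle replicate 2. Of 8 TLR4 receptor and adaptor genes, 5 rose, led by Cd14 (2.98), the inhibitory kinase-like gene Irak3 (2.69) and Myd88 (1.18), and Tlr4 itself fell by 0.65 (SE 0.15; adjusted p = 0.00825). In place of these 6 calls there were 3 without LPS replicate 1, and 4 without vehicle replicate 2 or with DESeq2. None of these 3 lists held a call in SGA360+LPS against LPS by edgeR or limma-voom, and DESeq2 called 1 gene, of the TLR4 list. At an unadjusted p under 0.05 in edgeR there were 2, 0 and 1 genes, in the order of the lists above, and their medians there were 0.06, −0.05 and −0.11, against 0.00 over all genes.

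Among 18 tested targets of NF-kB outside the members, all 18 rose with LPS (median 4.09) and 5 fell in SGA360+LPS against LPS (median −0.20). Of the 18, Il12b, Il1b and Ebi3 reached the filter level in fewer than 2 vehicle libraries and so passed only with the stimulated ones, which bound them to differ from vehicle. The 5 included Il1b (−1.04, SE 0.14; adjusted p = 0.0393), Ptgs2 (−0.97, SE 0.08; adjusted p = 0.00223), Il1a (−0.90, SE 0.10; adjusted p = 0.00961) and Cxcl1 (−0.67, SE 0.09; adjusted p = 0.0281). Il1a and Il1b encode the cytokines interleukin-1 alpha and beta, Ptgs2 the prostaglandin-forming enzyme COX-2, and Cxcl1 a chemokine that attracts neutrophils. The fifth was Cxcl2, another such chemokine (−0.62; adjusted p = 0.00961). This list was written with earlier results of these libraries known and is no independent evidence. Its count of calls was 0 without either SGA360+LPS library or without LPS replicate 2, 2 without LPS replicate 1, and 8 without vehicle replicate 1 or 2. Immediate early genes, the class to which Ier3 belongs, went both ways with LPS, with 6 rises and 4 falls among 13. Junb rose by 1.69, Fosl2 by 1.26 and Ier2 by 1.04, while Fos fell by 1.89. None of the 13 passed in SGA360+LPS against LPS by edgeR, DESeq2 or limma-voom, and 3 had an unadjusted p under 0.05 in edgeR, where Atf3 was at 0.19 (SE 0.07) and Junb at −0.22 (SE 0.11).

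**Figure D5:**
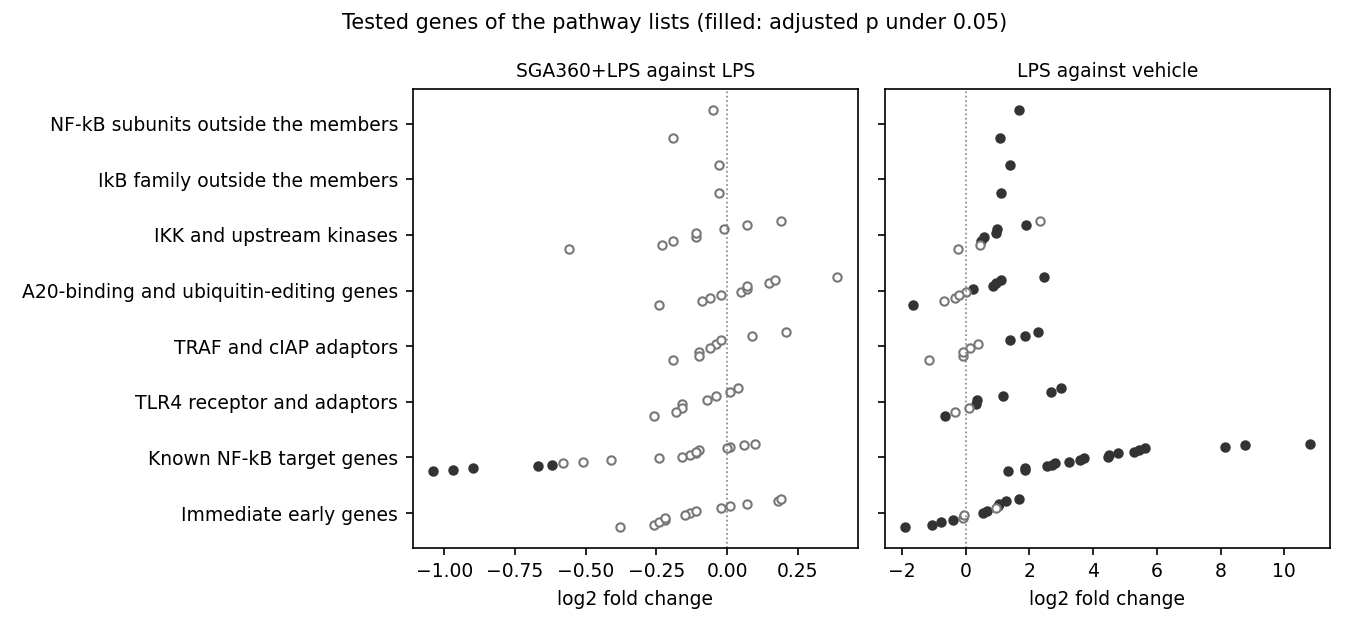
Each point is a tested gene of a pathway list placed by its log2 fold change, with SGA360+LPS against LPS on the left and LPS against vehicle on the right, filled where adjusted p was under 0.05. On the left the filled points are the 5 NF-kB targets from −1.04 to −0.62, and on the right all 18 targets are filled and above 0.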

How the data were processed

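The deposited file holds raw read counts as whole numbers, 1 row per RefSeq transcript (34751 rows), with symbol, position and length. The build (mm10) and the tools HTSeq 0.5.4p3 and TopHat2 2.0.13 are named per the submitters' processing notes. Strand setting, annotation version and handling of reads shared between rows: not given in the sources used here. All 6 library columns matched a label. Positions are the table's start plus 1.

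Rows were summed per symbol. Genes were filtered with filterByExpr of edgeR 4.0.16 (minimum count 10, about 1.14 CPM in 2 libraries), scaled by TMM, and tested with edgeR's quasi-likelihood test in a single model of all 6 libraries with group as the term (R 4.3.3, 3 residual degrees of freedom). Benjamini-Hochberg adjustment covered the 9389 tested genes, and the threshold was 0.05. The SE is the log2 fold change over the root of F. CPM use TMM-scaled library sizes, profiles use log2 CPM with a prior count of 2, and 95% intervals of fold changes are not adjusted for the number of genes. Estimated from all 6 libraries, the common biological coefficient of variation came to 0.0951. From the SGA360+LPS and LPS libraries alone it came to 0.054, so tests between these groups in the main model used a wider spread. Replicates differed by more than sampling noise (mean chi-square per gene 4.23, 6.35 and 45.17 for SGA360+LPS, LPS and vehicle). The scripts were tested on simulated counts.

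Members and lists were chosen with earlier results of these data known. All 10 members are named. Each list contributes at most 4 called genes by size of change, or 2 by level where none was called, and the nearest profiles are the 5 closest to the mean and up to 3 per member. Chuk, Ikbkb, Ikbkg, Map3k7, Traf2, Cxcl2, Tab1, Tab3, Il12b, Ebi3 and the called markers were named after their values were seen. By span, Nfkb2 overlaps Psd in its last bases and AC114539.1, Nfkb1 overlaps Gm43430, and Nfkbia overlaps the table's Mir1198 row, which has 0 counts. Alternatives were DESeq2 1.42.0, limma-voom (limma 3.58.1), DESeq2-type size factors, no filter, the row of most counts, the 2 groups alone, the replicate number as a block, and each library left out.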

Additional observations from a re-analysis of the deposited data

How the results depend on the processing

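Of the members, 1 was called in SGA360+LPS against LPS in every setting but those that leave out an SGA360+LPS or an LPS library, where the count was 0 (range 0 to 1 over the 6 fits without a library). In LPS against vehicle 6 or 7 members were called over all settings, and in SGA360+LPS against vehicle 5 to 7. Nfkb1, Nfkbia, Tnip3, Traf1 and Ier3 kept their direction and call against vehicle in all 13 alternatives. In SGA360+LPS against LPS the value of Nfkb2, 0.01, had no stable sign: it was −0.21 with the row of most counts, −0.0048 with limma-voom and −0.22 to 0.22 without 1 library. The cause was not tested.

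Whether libraries of the same replicate number belong together was not settled here. Across 9389 genes, the rep 1 minus rep 2 differences correlated at 0.163 between SGA360+LPS and LPS. They correlated at 0.015 between SGA360+LPS and vehicle and −0.007 between LPS and vehicle. The Rn45s share was 0.604%, 0.682% and 4.92% in replicate 1 of SGA360+LPS, LPS and vehicle. In replicate 2 it was lower, at 0.294%, 0.22% and 0.684%. With the replicate block, 1, 7 and 7 members were called, Ier3 had adjusted p = 0.0346, and 3 in place of 5 of the NF-kB targets were called in SGA360+LPS against LPS. For those targets the count was 8 with no filter and with the 2 groups alone. Over 312 list counts under alternatives, 296 were within 1.5 times the reported count, 8 were lower and 8 higher.

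Over all genes, 7 were called in SGA360+LPS against LPS, 17 with no filter, 12 with the 2 groups alone, 11 with DESeq2 and 0 to 16 without 1 library. Leaving out 1 library gave 2091 to 5494 calls in LPS against vehicle, against 3413, and 1831 to 5315 in SGA360+LPS against vehicle, against 3107. Few counts limit Nfkb2, Tnfaip3, Relb, Nfkbie and Nfkbiz, which held 233 together; whether this comes from depth or from reads shared between rows was not tested.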
